A study of Mus musculus with 15 samples.

Results

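The genes described here are the nuclear-encoded subunits of the mitochondrial respiratory chain and of the ATP synthase, in livers, kidneys and ectopic liver tissue of mice. They were taken as every gene whose symbol begins with Ndufa, Ndufb, Ndufc, Ndufs or Ndufv and a number, is Sdha, Sdhb, Sdhc or Sdhd, or begins with Uqcr, Cox4 to Cox8 or Atp5. RefSeq held 105 such symbols, of which 18 were pseudogenes, and 84 genes had at least 1 probe. Of these 84, 82 were tested among 15619 genes in all. The other 2, Cox7b2 and Cox8c, were above background on 0 of 15 arrays.

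RNA of 15 tissue samples from female FVB/N mice was measured on one-colour Agilent arrays. Recipients were wild-type mice aged 7 to 9 weeks that were given 2 intraperitoneal doses of 70 mg/kg monocrotaline, 2 weeks apart, to injure the liver. Hepatocytes from FVB/N mice carrying a human alpha-1-antitrypsin (hA1AT) transgene, aged 8 to 20 weeks, were then placed under the kidney capsule, 1000000 cells per recipient. Neo-liver is the liver tissue that formed there and was microdissected at 250 to 300 days. The 4 neo-liver, 4 host kidney and 4 host liver samples all came from such recipients, aged 48 to 55 weeks, so every one of these 3 groups had received monocrotaline and transplanted cells. The 3 control livers came from normal mice aged 20 weeks, so age and treatment cannot be told apart in any comparison with them. The sources used here do not name the promoter of the transgene. The labels do not say whether each sample came from a separate mouse or from pooled tissue, so the p-values measure only the spread between these samples.

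The respiratory chain passes electrons from NADH and succinate to oxygen and pumps protons out of the mitochondrial matrix, and the ATP synthase (complex V) uses the returning protons to make ATP. Complex I takes electrons from NADH, complex II (succinate dehydrogenase) from succinate, complex III hands them to cytochrome c, and complex IV (cytochrome c oxidase) reduces oxygen. Hepatocytes and kidney tubule cells are both rich in mitochondria, and some complex IV subunits have a second gene used mainly in muscle, brown fat, lung or germ cells.

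Levels are log2 signals relative to the 75th percentile of the array, and a difference is the first group's mean minus the second's. A gene is called higher or lower where limma's adjusted p (Benjamini-Hochberg over all 15619 genes, two-sided) was under 0.05. Because these are bulk tissues, fewer cells of a type and less RNA per cell cannot be told apart.

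Widely expressed subunit genes are known to share promoter elements, so the 250 bases before their starts were searched on both strands for GCATGCG, the core of the site of the factor NRF1, and for CGGAAG, the core of sites of ETS factors such as GABP. The RefSeq promoter table (build GRCm38.p6) held 72 starts of 67 of the 82 genes. GCATGCG was found in 9 of these 72 (12.5%) and in 3.02% of all 32851 promoters of the same length. CGGAAG was found in 23 of 72 (31.9%) and in 13.6% of all promoters. Starts were counted, so overlapping starts of a gene can share a match, as those of Atp5c1 did. A match describes the letters and does not show that a factor binds there. The stretches shown are 1 match for each complex that had one, with 20 bases on either side, and capitals mark GCATGCG or its reverse complement. Ndufa6 (subunit of complex I) is at chr15:82354348-82354394, strand -, Sdhb (iron-sulfur subunit of complex II) at chr4:140961197-140961243, strand +, Cox6a1 (complex IV) at chr5:115349093-115349139, strand - and Atp5j (peripheral stalk of complex V) at chr16:84835097-84835143, strand -. Both strands match in the same letters at Cox6a1 and Atp5j, since CGCATGCG reads alike on either strand.
Ndufa6: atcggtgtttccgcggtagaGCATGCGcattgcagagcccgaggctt
Sdhb: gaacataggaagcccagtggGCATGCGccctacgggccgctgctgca
Cox6a1: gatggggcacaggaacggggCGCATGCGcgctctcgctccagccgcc
Atp5j: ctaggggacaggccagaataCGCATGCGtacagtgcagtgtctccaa

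The 250 bases before the starts of Cox7a1 and Cox8b, the genes of muscle-type complex IV subunits whose levels departed most from the rest, are shown for comparison. They lie at chr7:30183921-30184170, strand + and chr7:140900447-140900696, strand -. Neither holds either motif, so no letters are in capitals, which says only that these letters are not in these windows. Most of the 72 starts searched hold neither motif as well.
Cox7a1: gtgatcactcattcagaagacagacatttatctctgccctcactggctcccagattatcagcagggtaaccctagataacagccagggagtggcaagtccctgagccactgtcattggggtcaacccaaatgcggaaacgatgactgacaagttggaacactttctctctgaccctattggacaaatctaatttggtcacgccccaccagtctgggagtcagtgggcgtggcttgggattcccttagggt
Cox8b: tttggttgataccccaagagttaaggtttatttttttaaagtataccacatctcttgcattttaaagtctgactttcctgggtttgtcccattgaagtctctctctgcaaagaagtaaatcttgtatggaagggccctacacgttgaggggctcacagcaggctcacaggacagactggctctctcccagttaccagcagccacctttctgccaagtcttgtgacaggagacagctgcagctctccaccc

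On the scale of the 75th percentile the subunit genes were lowest in neo-liver. Of the 82 genes, 72 had their lowest mean level in neo-liver and 56 their highest in control liver. Against control liver, 75 were lower and 4 higher, with a median difference of -0.68. Of all 15619 genes 50.2% were called there, 29.8% lower and 20.4% higher, with a median of -0.15. Against host liver 59 were lower and 3 higher (median -0.52), where 48.6% of all genes were called, 31.5% lower and 17.1% higher (median -0.21). Against host kidney 49 were lower and 2 higher (median -0.41), where 52.7% of all genes were called, 29.5% lower and 23.2% higher (median -0.09). These 3 comparisons share the neo-liver samples. In all 3 together, 34 of 82 genes (41.5%) were lower in neo-liver, and 323 of all 15619 genes (2.07%). These shares are over genes of all levels. Among the 629 genes with a mean level of at least 5.77, 77.3% were lower and 1.91% higher than in host liver. Against control liver 60.7% of these bright genes were lower and 2.86% higher, and against host kidney 14% and 41.2%. The shares of the 82 subunit genes called lower were 72%, 91.5% and 59.8% in that order.

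The scaling decided part of this order. With quantile normalization, which forces 1 distribution of values on all arrays, the number lower than in host kidney rose to 76 (median -0.73), the number lower than in control liver fell to 18 (median -0.16), and against host liver 0 were lower and 8 higher (median 0.02) by limma, or 4 and 11 at an unadjusted p under 0.05. The median of neo-liver was thus below host kidney under each scaling tried, below control liver under each but with fewer calls under quantile normalization, and not below host liver under quantile normalization. Most subunit genes are among the brightest on these arrays: the median rank of the 76 genes left without the tissue isoforms and Ndufa4l2 was 97.9 to 98.2% of all genes on the host kidney arrays, 96.3 to 96.9% on the neo-liver arrays, 96.3 to 96.5% on the host liver arrays and 96.6 to 96.7% on the control liver arrays. By rank, neo-liver thus overlapped both livers and lay below kidney. Among all 629 genes with a mean level of at least 5.77, 61 of them subunit genes, the median difference of neo-liver was -0.61 against host liver, -0.56 against control liver and 0.21 against host kidney. Beside these, the median differences of the 76 subunit genes were -0.55, -0.69 and -0.40.

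**Figure D1:**
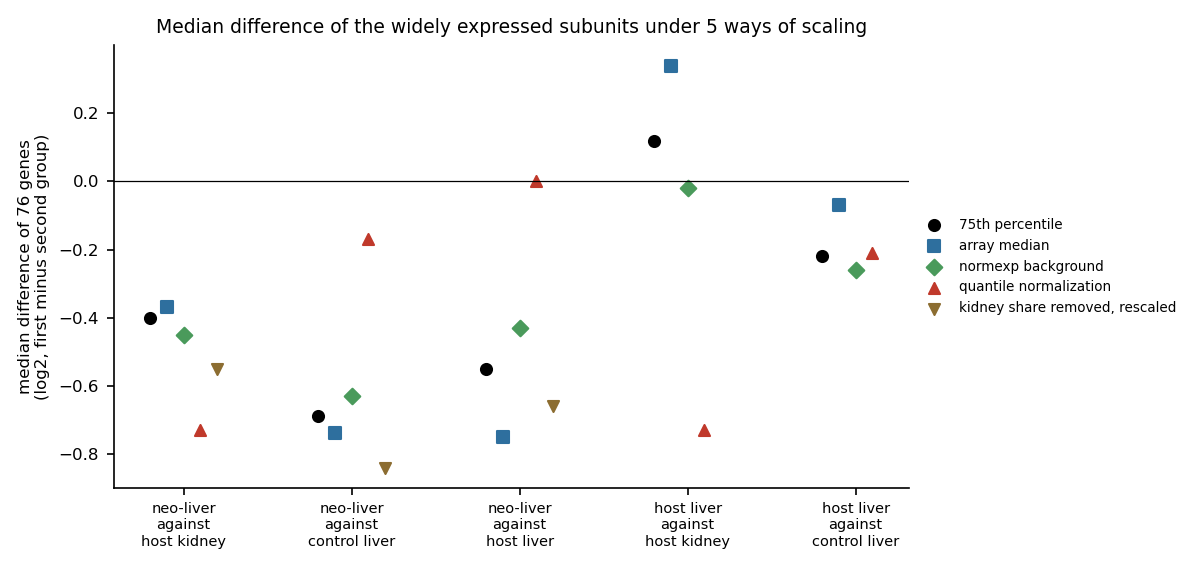
Median difference (log2, vertical axis) of 76 widely expressed subunit genes in 5 comparisons, each symbol a way of scaling the arrays. Every symbol for neo-liver against host kidney lies below 0, from -0.37 to -0.73, whereas the values of neo-liver against host liver run from -0.75 to 0 and those of host liver against host kidney from -0.73 to 0.34. Removing the kidney share with rescaling enlarges any linear difference from host kidney by construction, so that symbol is fixed in part there.

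Kidney tissue was present in the neo-liver samples. All 14 markers of distal nephron segments (loop, distal tubule, collecting duct) were above background on every neo-liver array, with a summed linear signal (in multiples of the array's 75th percentile) of 51.3 to 113, against 500 to 859 in host kidney, 1.39 to 3.56 in host liver and 2.7 to 3.27 in control liver. The 13 proximal tubule markers summed to 360 to 1090 in neo-liver and 1910 to 2540 in host kidney. From 26 of these markers the kidney share of the neo-liver signal was estimated as 15.2%, 40.5%, 16.3% and 29.6% on arrays 1 to 4, a mean of 25.4% ± 12 (SD, n = 4). The markers differed within an array: their quartiles were 8.69 and 26.9%, 17.2 and 70.4%, 7.75 and 23.6%, and 15 and 45.4%, so values after subtraction carry that uncertainty. The 13 hepatocyte markers summed to 5410 to 8080 in neo-liver, 9310 to 12900 in host liver, 8680 to 9350 in control liver and 27.1 to 54.4 in host kidney, and in neo-liver 7 of them were lower than in control liver and 9 lower than in host liver. With quantile normalization 2 were lower and 1 higher than in control liver (median 0.03). Against host liver 2 were then lower and 0 higher (median -0.04). When the kidney share was subtracted and the remainder rescaled, the median of the 82 subunit genes was -0.82 against control liver, -0.66 against host liver and -0.55 against host kidney. The value against host kidney is fixed in part by construction. Subtraction with rescaling enlarges any linear difference from the mean host kidney signal, whatever the data. Of 10 stellate cell and fibroblast markers 6 were higher in neo-liver than in control liver, with sums of 91.2 to 172 against 54.7 to 66.7, and their part in the results was not tested. All 4 neo-liver and all 3 control liver arrays lay on the same slide, while host kidney had a slide of its own and host liver another pair of slides, so slide and tissue cannot be told apart for these groups.

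Medians over the genes show how the arrays of a group differed. Over the 76 genes, the median level was 6.05, 6.36, 6.05 and 6.16 on the neo-liver arrays and 6.66, 6.62, 6.45 and 6.34 on the host kidney arrays. It was 6.77, 6.86, 6.61 and 6.57 in host liver and 6.87, 6.88 and 6.84 in control liver. The highest neo-liver array, array 2, lay just above the lowest host kidney array, and below all 7 liver arrays. Array 2 was also the array with the highest kidney share, 40.5%. The 3 control livers differed from each other by far less than the arrays of the other groups did (SD 0.02, against 0.14 to 0.15).

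**Figure D2:**
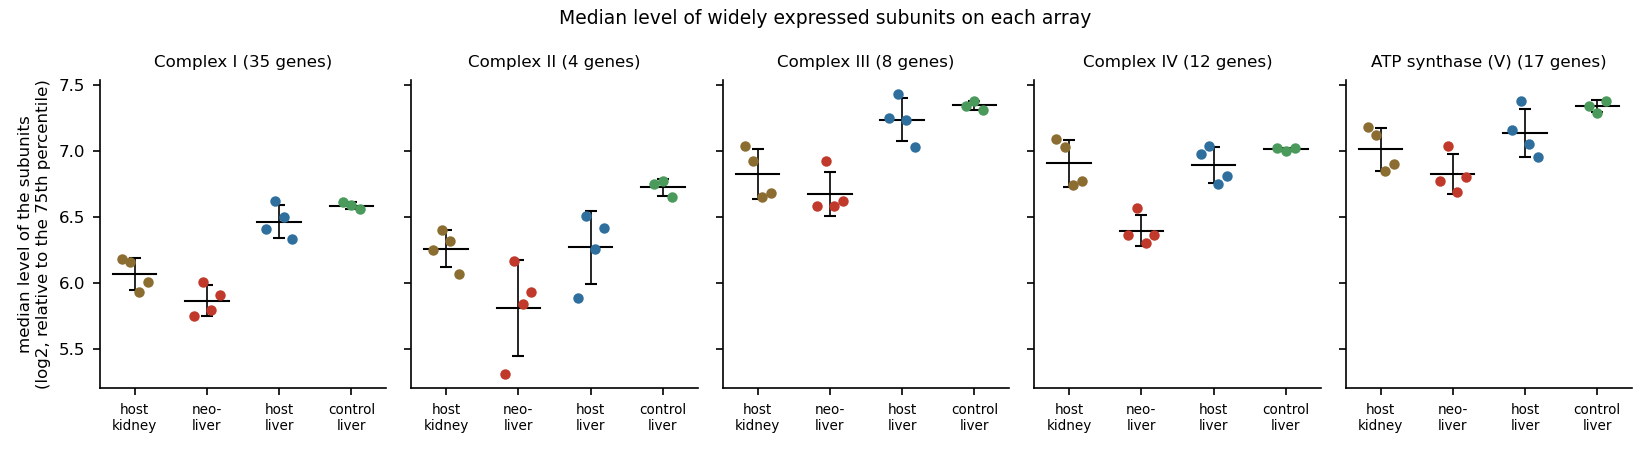
Median level (log2 relative to the array's 75th percentile, vertical axis) of the widely expressed subunit genes of each complex, 1 point per array, with the mean (bar) and SD (whiskers) of each group. Neo-liver had the lowest mean of the 4 groups in each complex, 5.87 for complex I against 6.07 in host kidney, 6.46 in host liver and 6.59 in control liver.

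Complex I was lower in neo-liver than in control liver in all 35 of its genes (median -0.77). Against host liver 30 of 35 were lower (median -0.57), and against host kidney 19 of 35 (median -0.38), with 0 higher in any of the 3 comparisons by limma, also at an unadjusted p under 0.05. With quantile normalization the counts lower were 11 against control liver, 0 against host liver and 34 against host kidney, and 1 was higher than in host liver. Against host kidney the 8 genes of the module that binds NADH and the 10 of the distal membrane arm were lower in 6 and 7 cases. The 8 genes of the ubiquinone-binding module and the 9 of the proximal membrane arm were lower in 2 and 4 cases. These counts were not tested against each other.

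Ndufb8, an accessory subunit of the membrane arm, had the largest fall from host kidney in complex I. Its level was 7.91, 7.86, 7.6 and 7.71 in host kidney and 6.57, 7.08, 6.71 and 6.82 in neo-liver, so the groups did not overlap. The difference was -0.98 ± 0.12 (SE), a 1.97-fold fall (limma adjusted p = 2.2e-05). It was 7.37, 7.58, 7.33 and 7.19 in host liver and 7.74, 7.68 and 7.6 in control liver, and neo-liver lay below every one of these arrays as well.

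Ndufb9, another accessory subunit of the membrane arm, had the largest fall from host liver in complex I. Its level was 6.57, 6.84, 6.59 and 6.59 in neo-liver and 7.63, 7.69, 7.44 and 7.17 in host liver. The difference was -0.83 ± 0.12 (SE; limma adjusted p = 0.000135), a 1.78-fold fall. All 4 neo-liver arrays also lay below the 4 host kidney arrays (6.92 to 7.21) and the 3 control livers (7.53 to 7.67).

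Ndufa7, a small accessory subunit, did not follow the kidney difference. It was at 6.12, 6.1, 6.05 and 6.14 in neo-liver and 6.15, 5.96, 5.93 and 6.01 in host kidney, which overlapped (difference 0.09 ± 0.08 SE, limma adjusted p = 0.375). Its liver levels were higher, 6.7 to 6.85 in host liver and 6.62 to 6.68 in control liver. Host liver was above host kidney by 0.78 ± 0.08 (SE; limma adjusted p = 9.36e-07), which became -0.02 with quantile normalization.

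Complex II, which has 4 nuclear genes and is also an enzyme of the TCA cycle, had the lowest median against control liver, -0.91, with all 4 lower. The medians were -0.58 against host kidney (3 of 4 lower) and -0.36 against host liver (1 of 4 lower). With quantile normalization 2 were lower than in control liver, 0 than in host liver and 4 than in host kidney.

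Sdhd, a membrane anchor, was at 7.29, 7.38 and 7.18 in control liver and 5.43, 6.44, 6.2 and 6.22 in neo-liver, a 2.32-fold difference with no overlap (-1.21 ± 0.225 SE, limma adjusted p = 0.000612). Host liver was at 6.21, 6.99, 6.76 and 6.42, also below every control liver array (-0.69 ± 0.225 SE, adjusted p = 0.0401), but this call was lost on leaving out any 1 of the 7 arrays except host liver array 2 (adjusted p of 0.0501 to 0.121). Its difference of -0.52 from host liver was not called (adjusted p = 0.0523), and was called with the sample number as a block (0.0189), without neo-liver array 2 (0.0278) and without host liver array 1 (0.0232). Neo-liver array 1 and host liver array 1 were each the lowest of their group.

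Sdhb, the iron-sulfur subunit whose promoter stretch is shown above, was at 8.07, 8.01 and 7.99 in control liver and 6.86, 7.33, 6.59 and 6.8 in neo-liver. The difference was -1.13 ± 0.21 (SE; limma adjusted p = 0.000588), and the groups did not overlap. Host kidney (7.21 to 7.62) and host liver (7.11 to 7.97) both overlapped neo-liver and had higher means, 7.41 and 7.5 against 6.89.

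Sdha, the flavoprotein that oxidises succinate, was at 6.21, 6.32, 6.27 and 6.02 in host kidney and 5.19, 5.9, 5.47 and 5.64 in neo-liver, without overlap (-0.65 ± 0.15 SE, limma adjusted p = 0.00205). Sdhc, the other anchor, was lower in neo-liver than in host kidney (-0.63 ± 0.14 SE, adjusted p = 0.00244) and control liver (-0.70 ± 0.15, adjusted p = 0.00237). Neither gene passed the test between neo-liver and host liver, with differences of -0.20 and -0.19. Sdhc had 3 usable host liver arrays, since 1 spot was flagged.

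Complex III was lower in neo-liver than in both livers in all 8 genes, with medians of -0.65 against control liver and -0.58 against host liver. Against host kidney 5 were lower and 1 higher (median -0.46). With quantile normalization the counts lower were 2, 0 and 6 in that order. The 2 core proteins and the Rieske iron-sulfur protein (Uqcrfs1) were all lower than in host kidney, whereas of the 5 small subunits 2 were lower and 1 was higher.

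Uqcrc1, a core protein, was at 5.58, 5.46 and 5.45 in control liver and 4.13, 4.98, 4.35 and 4.52 in neo-liver, a 2-fold difference (-1 ± 0.20 SE, limma adjusted p = 0.000948). Uqcrc2, the other core protein, was at 6.59, 6.7, 6.5 and 6.38 in host kidney and 5.81, 6.23, 5.91 and 5.92 in neo-liver (-0.57 ± 0.11 SE, adjusted p = 0.000915). Neither pair of groups overlapped.

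Uqcrq, a small subunit that binds ubiquinone, was the exception. It was at 7.54, 7.47, 7.21 and 7.13 in host kidney, 8.02, 8, 7.98 and 7.95 in neo-liver, 8.9, 8.84, 8.66 and 8.75 in host liver and 8.57, 8.62 and 8.6 in control liver. Neo-liver lay between kidney and liver with no overlap on either side. It was 1.57-fold higher than in host kidney (0.65 ± 0.10 SE, limma adjusted p = 0.000127) and 1.74-fold lower than in host liver (-0.80 ± 0.10, adjusted p = 3.92e-05). With quantile normalization it stayed higher than in host kidney (0.37 ± 0.09 SE, adjusted p = 0.00295), and the differences from host liver and control liver were -0.04 and 0.08.

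Complex IV divided into the subunits used in most tissues and the tissue isoforms. Of 18 tested genes, 11 were lower and 4 higher than in control liver, 7 lower and 3 higher than in host liver, and 13 lower and 1 higher than in host kidney. All genes called higher than in either liver were tissue isoforms. For the 12 genes without the isoforms and Ndufa4l2 the medians were -0.55 against control liver, -0.39 against host liver and -0.45 against host kidney. With quantile normalization these medians became 0.05, 0.25 and -0.75, and 2 of the 12 genes were higher than in host liver.

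Cox5b, a zinc-binding subunit, had the largest fall from kidney among the subunits used in most tissues. Its levels were 6.96, 7.02, 6.7 and 6.68 in host kidney and 5.9, 6.27, 5.78 and 5.86 in neo-liver, 1.85-fold lower without overlap (-0.89 ± 0.14 SE, limma adjusted p = 0.000172). Cox4i1, the main form of the largest nuclear-encoded subunit, was at 6.98, 7.39, 7.09 and 7.15 in neo-liver, and each of the other 11 arrays lay above these, from 7.53 to 8.05. Its difference from host liver was -0.76 ± 0.11 (SE; limma adjusted p = 0.000103). Cox6b1, which lies between the monomers of the dimer, was 1.79-fold lower than in control liver (-0.84 ± 0.16 SE, adjusted p = 0.000669).

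Cox6a1, Cox8a and Ndufa4 were lower than in control liver by smaller amounts. The differences were -0.63 ± 0.12 (SE), -0.51 ± 0.14 and -0.48 ± 0.13, with limma adjusted p of 0.000687, 0.00868 and 0.00642. With quantile normalization all 3 turned to slightly higher, 0.18, 0.13 and 0.04. Cox7a2, the liver form of its subunit, was the only one of the 76 genes that was not called against control liver (-0.33 ± 0.14 SE, adjusted p = 0.0652), though its groups did not overlap, and it was called without neo-liver array 2 (-0.42, adjusted p = 0.0244).

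The muscle-type isoforms ran the other way. Cox7a1, the heart and skeletal muscle form of subunit 7a, was at 4.37, 4.54, 3.76 and 3.86 in host kidney, 1.79, 3.29, 1.47 and 2.25 in neo-liver, 1.14, 1.25, 0.61 and 0.54 in host liver and 1.05, 0.73 and 0.91 in control liver. Neo-liver lay between kidney and the livers without overlap, and its highest array was array 2. It was 3.82-fold lower than in host kidney (-1.93 ± 0.33 SE, limma adjusted p = 0.000269) and 2.47-fold higher than in control liver (1.3 ± 0.36, adjusted p = 0.00807). When the kidney share was subtracted, 2 of the 4 neo-liver arrays fell to the lowest signal above background, which was set as a floor, and the difference from control liver turned to -3.26 (adjusted p = 0.0295), or -3.01 (0.0832) with the remainder rescaled. Its size depends on that floor.

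Cox8b, the muscle and brown fat form of subunit 8, was at 3.8, 3.26, 3.53 and 1.94 in host kidney and -1.62, -1.5, -2.25 and -0.84 in neo-liver. It was at -3.67, -3.91, -4.5 and -3.57 in host liver, where 2 of 4 arrays were well above background, and at -4.11, -6.52 and -5.23 in control liver, where 1 of 3 was. The 4 kidney arrays lay far above all others, and neo-liver lay above both livers without overlap. Neo-liver was 25.7-fold lower than host kidney (-4.68 ± 0.50 SE, limma adjusted p = 4.27e-06). It was higher than host liver by 2.36 ± 0.50 (SE; adjusted p = 0.00184), a size that rests in part on the 2 host liver arrays not well above background. When the kidney share was subtracted, all 4 neo-liver arrays fell to the floor, so no level was left to compare.

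Cox6a2, the muscle form of subunit 6a, was low everywhere, at -2.98, -2.31, -2.95 and -3.32 in host kidney, -2.46, -2.16, -1.55 and -1.31 in neo-liver, -2.58, -2.48, -2.63 and -2.23 in host liver and -3.67, -3.57 and -3.5 in control liver. It was the only one of the 82 genes with its highest mean in neo-liver. It was 3.27-fold higher there than in control liver, without overlap (1.71 ± 0.27 SE, limma adjusted p = 0.000156), and 2.02-fold higher than in host kidney, with overlap (adjusted p = 0.00352). The difference from host liver, 0.61, was not called (adjusted p = 0.0555; 0.0343 with the sample number as a random block). After subtraction of the kidney share it was still higher than in control liver, by 1.5 (adjusted p = 0.000707).

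Cox6b2, the testis form of subunit 6b, was at -0.4, -0.2, 0.26 and -0.2 in neo-liver and -1.49, -1.21 and -1.35 in control liver, without overlap (1.21 ± 0.37 SE, limma adjusted p = 0.0144; 0.0508 without control liver array 1). Host kidney was at 0.61, 0.47, 1.61 and 0.49, above every neo-liver array, and host liver ranged from -1.23 to 0.52. After subtraction of the kidney share, which without rescaling lowers every gene, the difference from control liver was -0.11 (adjusted p = 0.872). The call was lost with the remainder rescaled too. Cox4i2, the lung form of subunit 4, was lower than in host kidney (-0.67 ± 0.12 SE, adjusted p = 0.000431), differed from control liver by 0 (adjusted p = 0.983) and was higher than in host liver (0.46 ± 0.12, adjusted p = 0.00784). The call against host liver was lost with normexp (0.28, adjusted p = 0.059), with median centring (0.26, 0.0537) and after subtraction of the kidney share (-0.37, 0.157, or 0.07, 0.751, rescaled). Ndufa4l2, a hypoxia-induced relative of Ndufa4, was the only one of the 82 genes called in none of the 5 comparisons, with group means of -0.74 to -0.51.

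Markers of the tissues that use these isoforms were low or uneven. Of 7 skeletal muscle markers 3 were tested, and their summed signal was 0.232 to 0.601 in neo-liver, 0.638 to 0.975 in host kidney, 0.186 to 0.574 in host liver and 0.373 to 0.413 in control liver. Of 6 fat markers 4 were tested, and they summed to 7 to 42.8 in neo-liver, 22.8 to 35.6 in host kidney, 2.47 to 4.32 in host liver and 2.63 to 3.48 in control liver. Their part in the isoform differences was not tested.

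**Figure D3:**
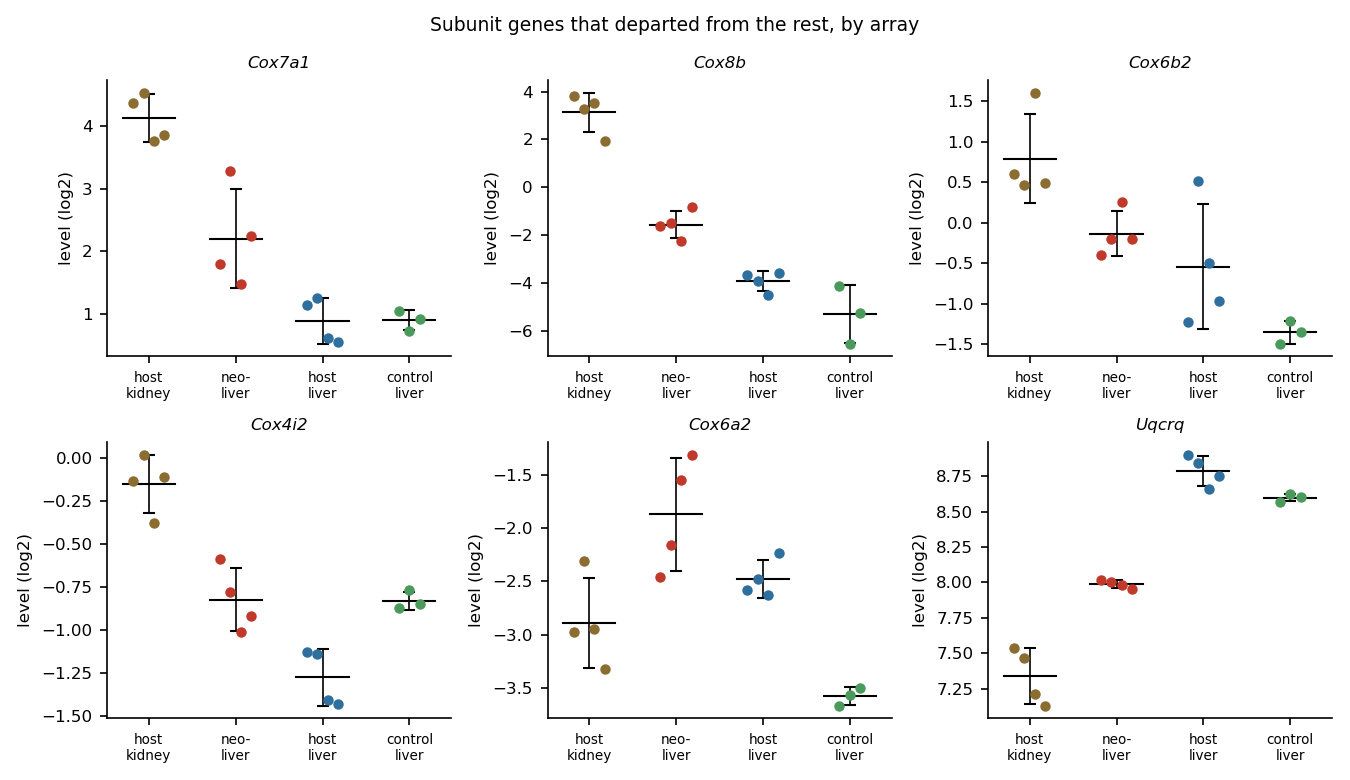
Level (log2 relative to the array's 75th percentile, vertical axis) of 6 genes that departed from the other subunit genes, 1 point per array, with the mean (bar) and SD (whiskers) of each group. Cox7a1 and Cox8b fell from host kidney through neo-liver to the livers, Cox6a2 had its highest arrays in neo-liver, and Uqcrq rose from host kidney through neo-liver to the livers.

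The ATP synthase was lower in neo-liver than in control liver in all 17 genes (median -0.68). Against host liver 13 were lower (median -0.48) and against host kidney 9 (median -0.38). With quantile normalization 2, 0 and 17 were lower, and 2 were higher than in host liver. All parts of the enzyme took part against control liver: the 5 genes of the catalytic head and central stalk, the 3 of the c ring, the 4 of the peripheral stalk and the 5 membrane subunits.

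Atp5a1, the alpha subunit of the catalytic head, was at 8.06, 7.93, 7.82 and 7.71 in host kidney and 6.87, 7.62, 7.08 and 7.25 in neo-liver, 1.6-fold lower without overlap (-0.68 ± 0.16 SE, limma adjusted p = 0.00273). Host liver, at 7.25, 7.69, 7.2 and 7.2, overlapped neo-liver and lay below host kidney (-0.55 ± 0.16, adjusted p = 0.00702). Atp5d, the delta subunit of the central stalk, had the largest fall from host liver in the ATP synthase, from 5.93, 6.47, 6.28 and 6.06 to 4.9, 5.71, 5.48 and 5.54 (-0.78 ± 0.16 SE, adjusted p = 0.00182).

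The c ring is the rotor that protons turn, and 3 genes encode the same mature protein. Atp5g1 was at 8.15, 8.11 and 7.9 in control liver and 6.97, 7.4, 6.92 and 7.01 in neo-liver, 1.97-fold lower without overlap (-0.98 ± 0.17 SE, limma adjusted p = 0.000332). Atp5g3 and Atp5g2 were lower by smaller amounts, -0.76 ± 0.15 (adjusted p = 0.00108) and -0.55 ± 0.14 (adjusted p = 0.00448). Against host kidney only Atp5g1 passed the test (-0.39 ± 0.155 SE, adjusted p = 0.0469), a call lost on leaving out any of 6 of the 8 arrays (adjusted p of 0.0597 to 0.128), and the differences between the 3 genes were not tested. Atp5e, the small epsilon subunit, did not differ between neo-liver and kidney beyond its spread (0.01 ± 0.13 SE, adjusted p = 0.942) and was lower than in host liver (-0.63 ± 0.13, adjusted p = 0.00128).

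Atpif1, which blocks ATP hydrolysis by the synthase and is not one of the 82 genes, followed the kidney. It was at 7.95, 7.8, 7.66 and 7.68 in host kidney, 5.82, 6.69, 5.83 and 6.22 in neo-liver, 4.97, 5.55, 4.99 and 5.03 in host liver and 5.15, 5.16 and 4.97 in control liver. The groups were ordered without overlap between kidney, neo-liver and the livers. It was higher in neo-liver than in control liver by 1.05 ± 0.20 (SE; limma adjusted p = 0.000829) and lower than in host kidney by 1.63 on the log2 scale (adjusted p = 8.78e-06). After subtraction of the kidney share, which without rescaling lowers every gene, it was lower than in control liver (-1.08). It was lower by less with the remainder rescaled.

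**Figure D4:**
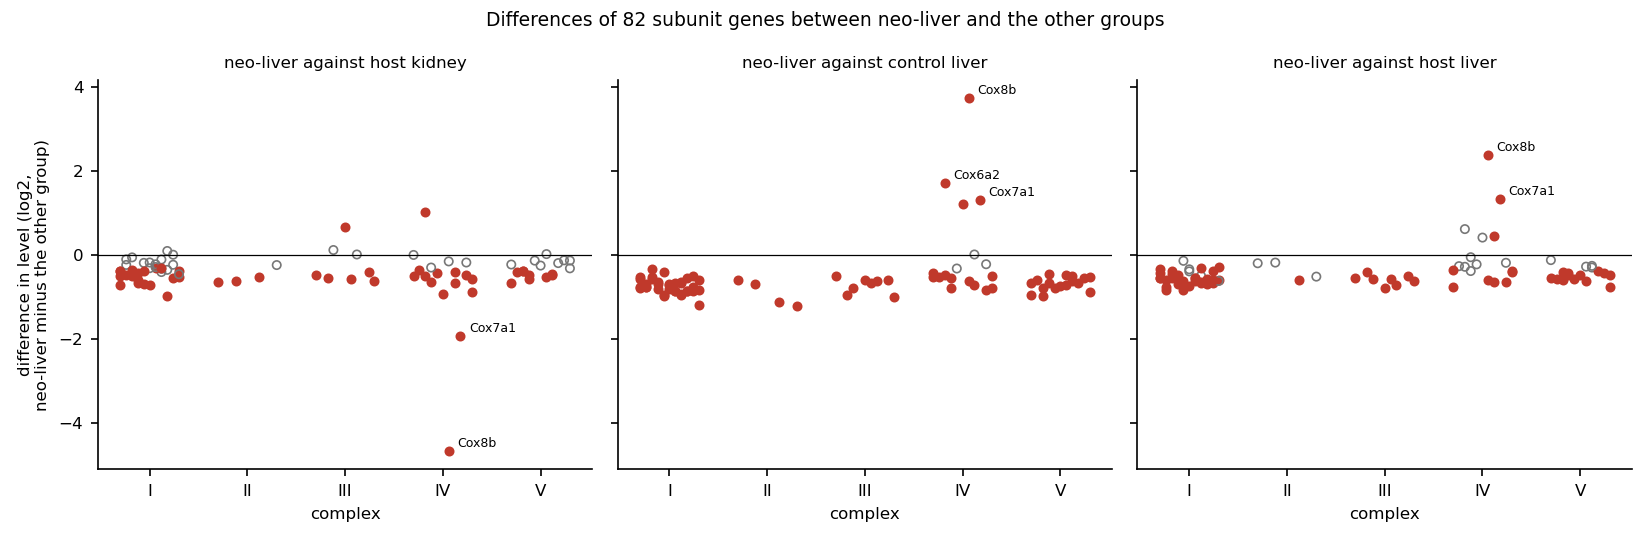
Difference in level (log2, neo-liver minus the other group, vertical axis) of the 82 genes by complex; filled points passed limma's adjusted p of 0.05 and open points did not, and genes that differed by more than 1.3 are named. Against control liver nearly all points lie between -1.21 and 0, and the points above 0 belong to complex IV.

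Other genes of the pathway, from lists chosen with these data known, moved mostly the same way against control liver. Beside the counts below, 29.8% of all genes were lower and 20.4% higher than in control liver. Against host kidney the shares of all genes were 29.5% and 23.2%. Cyc1, the cytochrome c1 of complex III, was lower than in control liver (-1.15 ± 0.22 SE, limma adjusted p = 0.000676) and Ndufab1, an acyl carrier subunit of complex I, also (-0.74 ± 0.19, adjusted p = 0.00521). Of 47 assembly factors 39 were lower and 0 higher (median -0.74). Foxred1, an assembly factor of complex I, had the largest difference, -1.27. Of 77 mitochondrial ribosomal protein genes 66 were lower and 1 higher (median -0.59). With quantile normalization 32 assembly factors and 35 ribosomal protein genes were lower. Against host kidney, 16 assembly factors were lower and 6 higher (median -0.18), and 13 ribosomal protein genes lower and 8 higher (median -0.08).

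Of 16 genes of the TCA cycle and pyruvate dehydrogenase, 10 were lower than in control liver (median -0.73) and 8 lower than in host kidney (median -0.60). The shares of all genes lower there were 29.8% and 29.5%. With quantile normalization 5 were lower and 2 higher than in control liver (median -0.26), and 15 lower than in host kidney. Fh1, fumarase, had the largest fall from control liver (-1.35 ± 0.21 SE, limma adjusted p = 0.000148). Of 16 genes of mobile carriers and other ubiquinone reductases 10 were lower than in control liver (7 with quantile normalization), and 4 were lower and 3 higher than in host kidney. Sqor, which passes electrons from sulfide to ubiquinone, was lower than in control liver (-1.48) and higher than in host kidney (1.11 ± 0.21 SE, limma adjusted p = 0.000522). Of 17 genes of mitochondrial import and structure 14 were lower than in control liver, or 7 with quantile normalization. Among 8 genes of ATP, phosphate and proton exchange 4 were lower than in control liver, or 0 with quantile normalization by limma, also at an unadjusted p under 0.05 (median 0.11). The 1 called higher was Slc25a4, the muscle-type ADP/ATP carrier (1.44 ± 0.23 SE against control liver, -1.26 ± 0.21 against host kidney).

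Regulators of mitochondrial biogenesis did not move as a group. Of 19 genes, 7 were lower and 3 higher than in control liver, where 29.8% and 20.4% of all genes were. Against host kidney 9 were lower and 2 higher, where 29.5% and 23.2% of all genes were. Perm1, a muscle regulator of the PGC-1 and ERR pathway, was at least 2.27-fold higher than in control liver, where it was not well above background (limma adjusted p = 0.000652), and lower than in host kidney (-2.65 ± 0.40, adjusted p = 9.9e-05). Chosen after the values were seen, Ppargc1a (PGC-1alpha) had differences of 1.01 and -1.71 in the same order, Tfam, which packages mitochondrial DNA, -0.79 and 0.10, and Nrf1 0.12 and -0.22. Of 14 glycolysis genes 5 were higher and 6 lower than in control liver, where 20.4% and 29.8% of all genes were. With quantile normalization 5 were higher and 0 lower by limma (median 0.44), or 7 and 2 at an unadjusted p under 0.05. Pfkp, a phosphofructokinase, and Hk1, hexokinase 1, were higher by 2.32 and 2.31. Of 9 hypoxia-induced genes 3 were higher and 3 lower, and Ndrg1 was higher by 6.24. Perm1, Slc25a4, Pfkp, Hk1 and Ndrg1 all had lower levels in neo-liver than in host kidney, with differences of -2.65, -1.26, -2.15, -2.44 and -0.95.

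The 2 host organs set the range within which the ectopic tissue was read. On the 75th percentile scale 22 subunit genes were higher and 10 lower in host liver than in host kidney (median 0.10), where 70.8% of all genes were called, 39.6% higher and 31.2% lower (median 0.14). With quantile normalization 2 were higher and 71 lower (median -0.76), so no direction can be given for liver against kidney as a whole. Of the 629 bright genes 74.6% were higher and 5.41% lower on the 75th percentile scale (median 0.74). With quantile normalization 29.9% of them were higher and 40.4% lower. Uqcrq was 2.73-fold higher in host liver (1.45 ± 0.10 SE, limma adjusted p = 2.1e-08), and was higher with quantile normalization too (0.41). Cox7a1 was lower, with a difference of -3.25, and so was Cox8b, at -7.04 with 2 of the 4 host liver arrays well above background.

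Against control liver 1 subunit gene was higher and 9 lower in host liver (median -0.20), where 24.7% of all genes were called, 13.4% higher and 11.2% lower (median 0.08). The 9 of 82 are close to the share over all genes. The gene called higher was Cox6a2, at -2.58 to -2.23 against -3.67 to -3.5 (1.1 ± 0.27 SE, limma adjusted p = 0.00981). Among those lower, Uqcrfs1 was at 6.28, 6.67, 6.39 and 6.18 in host liver and 6.98, 6.91 and 6.84 in control liver (-0.53 ± 0.14 SE, limma adjusted p = 0.0176), without overlap. Cox7c, a small subunit of complex IV, was at 5.74, 5.81, 5.61 and 5.4 against 6.17, 6.14 and 6.1 (-0.50 ± 0.13 SE, adjusted p = 0.0169). Both calls were lost without control liver array 1 or 2. The number lower was 21 without host liver array 2, 2 without host liver array 3, 3 without host liver array 4, 0 without control liver array 1 or 2, and 2 without control liver array 3. With arrays centred on their median, 0 were lower and 6 higher by limma, or 6 and 8 at an unadjusted p under 0.05.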

How the data were processed

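Intensity values were deposited as scanner files written by Agilent Feature Extraction 10.10.1.1, per the file headers, background-subtracted and not scaled between arrays. A log2 table deposited by the authors differed by at most 0.01 from the log2 signal less 1 fixed value for each array in 99.78 to 99.85% of probes. Here unflagged spots of a probe were averaged and log2 signal minus the array's 75th percentile was used. Probes were kept if well above background on all arrays of at least 1 group, and named through RefSeq accessions (26582 of 55681 probes). The brightest kept probe stood for a gene; 22 subunit genes had more than 1, and called differences in which the probes disagreed in sign were Ndufv3 and Sdhc (host liver against host kidney) and Atp5c1 (neo-liver against host liver). Near-identical pseudogenes could share signal with a probe. Groups were compared with limma 3.58.1 in R 4.3.3, fitted to all 15 arrays. The fit was tested on simulated data. The number of arrays limits the precision.

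The subunit genes and lists were chosen with earlier results of these data known. Members named with full statistics were, per comparison and complex, the called gene with the largest rise and the largest fall without overlap of groups, then tissue isoforms, succinate dehydrogenase genes, the c ring and the inhibitor; of each list, at most the 2 called genes with the largest difference, except where stated. A gene that this rule names is not reported here.

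The labels do not say that host samples of the same number came from the same mouse. Deviations of same-numbered host samples correlated at 0.179 to 0.577, and each of the 4 numbers correlated best with its own in every pair of tissues. The source of this correlation was not tested, and the main fit did not pair the samples. To estimate the kidney share of an array, the mean control liver signal was taken off the array and off the host kidney mean, and the median of their ratio was used over 26 kidney markers whose host kidney mean exceeded the control liver mean 8-fold or more. Alternatives were normexp background correction (offset 50), quantile normalization, median centring, the deposited table, other filters, the mean of probes, fits of 2 groups, replicate and slide blocks, kidney subtraction, and leaving out each array.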

Additional observations from a re-analysis of the deposited data

Results flagged for a closer look

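Of 113 groups of 4 arrays examined, 8 held an array far from the other 3, by Dixon's test at a critical value of 0.829, where chance flags about 1 in 20. On neo-liver array 2, the complex III median was 6.92 (others 6.58 to 6.62), Ndufb9 was 6.84 (6.57 to 6.59) and Ndufb5 was 5.64 (5.27 to 5.31). On host liver array 2, Atp5a1 was 7.69 (7.2 to 7.25), Cox6b1 was 4.82 (4.31 to 4.37), Atpif1 was 5.55 (4.97 to 5.03) and Ndufa4l2 was -0.11 (-0.72 to -0.66). On host kidney array 3, Cox6b2 was 1.61 (0.47 to 0.61).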

How the results depend on the processing

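Limits first: groups of 3 and 4 arrays, bulk tissue, kidney RNA in every neo-liver sample, and signals near background for Cox8b in the livers. With quantile normalization the subunit genes lower in neo-liver numbered 76 against host kidney (median -0.73), 18 against control liver (-0.16) and 0 against host liver (median 0.02, 8 higher; by limma, and 4 lower at an unadjusted p under 0.05). Of the 629 bright genes 35.6%, 21.6% and 6.52% were lower and 26.6%, 24% and 14% higher in the same order. Host liver against host kidney had 2 higher and 71 lower (median -0.76). Single genes changed sign with it. Against host liver these were Atp5g1 0.03, Atp5g2 0.14, Atp5g3 0.20, Cox6a1 0.30, Cox8a 0.26 and Ndufa4 0.25. Against control liver they were Atp5g2 0.02, Cox4i1 0.06, Cox6a1 0.18, Cox8a 0.13 and Ndufa4 0.04. For host liver against host kidney they were Atp5e -0.30, Atp5g1 -0.77, Atp5g2 -0.60, Atp5g3 -0.99, Cox4i1 -0.82, Cox6a1 -0.87, Cox6b1 -0.44, Ndufa7 -0.02, Sdhb -0.86 and Sdhd -0.52. With median centring, neo-liver against host liver had a median of -0.72, host liver against host kidney 0.32 (37 higher, 4 lower), and host liver against control liver -0.06 (6 higher, 0 lower by limma, 6 lower at an unadjusted p under 0.05). With normexp, host liver against host kidney had a median of -0.03 and 23 lower. Subtraction of the kidney share gave medians of -0.99 against host kidney (79 lower), -1.26 against control liver (1 higher) and -1.09 against host liver (0 higher by limma, also 0 at an unadjusted p under 0.05). Subtraction alone lowers every gene above the floor on a neo-liver array by construction, so these medians and counts are fixed in part by it. With the remainder rescaled, an alternative added after the data were seen, the medians were -0.55, -0.82 (1 higher) and -0.66 (1 higher). The -0.55 against host kidney is fixed in part too, since rescaling enlarges any linear difference from the mean host kidney signal. Subtraction turned Atpif1 (-1.08 against control liver, -1.13 against host liver), Cox4i2 (-0.82 and -0.37), Cox7a1 (-3.26 and -3.25), Cox6b2 against control liver (-0.11) and Cox8b against host liver (-0.99); rescaled, Atpif1 was -0.65 and -0.69, Cox7a1 -3.01 and -3, and Cox8b -0.99. Cox8b then lay at the floor on all 4 neo-liver arrays and Cox7a1 on 2, so these values depend on the floor. With the filter on all 15 arrays Sdhc in host liver against host kidney became 0.10, as another probe stood for it.

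For host liver against control liver, the number lower was 4 with no filter, 2 in a fit of both groups alone and 5 with slide as a random block. Without 1 array it ranged from 0 (control liver array 1 or 2 left out) to 21 (host liver array 2 left out), and the number higher from 1 to 2. Leaving out arrays gave 41 to 56 lower against host kidney, 73 to 76 against control liver and 49 to 68 against host liver for neo-liver. With the replicate block as a fixed term on the host arrays, 60 genes were lower in neo-liver than in host kidney and 70 than in host liver; every call made without it was kept with it in the 3 comparisons among host tissues, and Sdhd and Ndufa4 against host liver were called in addition among the genes named. With the number as a random block every call was kept in all 5 comparisons, and Cox6a2 against host liver, and Cox4i1 and Ndufa4 in host liver against host kidney, were called too. The cause of the changes with scaling was not tested.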
